A study of Mus musculus with 6 samples.

Results

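The genes described are the cytochrome P450 genes of families 1 to 4 in the mouse colon epithelium. Members were taken by symbol, as every row named Cyp, a family number from 1 to 4, a subfamily letter and a gene number, with pseudogene names left out, which gave 51 of the 28500 rows of the gene table. One of them, Cyp4x1os, is an antisense transcript and not an enzyme gene. RNA purified on oligo(dT) was sequenced from the colon epithelium of 6 mice, 3 for each of 2 genotypes. Ube2f encodes an E2 enzyme of neddylation, the attachment of the ubiquitin-like protein NEDD8. The Ube2fflox mice have the genotype WT in the labels and the Ube2fΔIEC mice the genotype KO. The labels name neither the Cre driver nor the deleted exons, the strain or whether the animals were littermates. All animals were labelled male, 8 weeks old and not treated with DSS or any drug, and epithelium was loosened from opened colons with EDTA. There was no further control group, so the deletion and any other difference between the genotypes cannot be told apart.

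Cytochrome P450 enzymes are haem proteins that insert 1 atom of molecular oxygen into a substrate, using electrons passed on from NADPH by the reductase encoded by Por. Families 1 to 3 oxidise drugs, dietary compounds, steroids and arachidonic acid, and family 4 hydroxylates fatty acids and eicosanoids near the end of the chain. Their expression is under nuclear receptors and other ligand-activated factors, among them AHR for Cyp1 genes, CAR and PXR for Cyp2b, Cyp2c and Cyp3a genes and PPARα for Cyp4a genes. The gut epithelium is the first tissue to meet ingested and microbial compounds.

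The libraries held 55971362 to 77524693 counts. Ube2f itself was at 36.1 ± 5.29 CPM (SD, n = 3) in Ube2fflox and 18.7 ± 2.02 CPM in Ube2fΔIEC, with no overlap (log2 fold change -0.95, SE 0.13; edgeR quasi-likelihood p of 0.0923 after Benjamini-Hochberg adjustment over all genes). The epithelial label was met: the 15 absorptive colonocyte markers summed to between 7528 and 10961 FPKM in every library. The 8 fibroblast markers summed to at most 0.81 FPKM and the 6 endothelial markers to at most 1.77 FPKM. The library of Ube2fΔIEC replicate 1, labelled male, had 0 counts of Ddx3y, Eif2s3y, Kdm5d and Uty and 494 CPM of Xist, against at most 1.33 CPM of Xist in the other 5. Values without this library are given beside some of the results.

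Of the 51 members, 23 had a mean of at least 1 FPKM over the 6 libraries, and 21 of these reached 1 FPKM in each library. FPKM is the authors' value scaled by gene length and library size, so it can be compared between genes. A single gene, Cyp2c55, held 46.7% of the summed FPKM of the family on average (42.6 to 53.0% by library), and with Cyp2c65 the share was 63.2% (58.5 to 67.3%). The 28 members under 1 FPKM added up to 3.74 FPKM together, against 986 FPKM for all 51. Of the expressed members, 2 exceeded 100 FPKM, 10 lay between 10 and 100, and 11 between 1 and 10.

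Cyp2c55, which makes 19-HETE from arachidonic acid in the mouse, stood at 462 ± 69.8 FPKM (SD, n = 6 libraries) and ranked 67th of all 28500 rows. Cyp2c65, another intestinal arachidonate-metabolising enzyme, followed at 162 ± 22.1 FPKM. Below these came Cyp4f14, a leukotriene B4 hydroxylase, at 60.0 ± 9.44 FPKM, and Cyp3a13, a Cyp3a enzyme found outside the liver, at 52.6 ± 7.98 FPKM. The lowest Ube2fflox or Ube2fΔIEC library of Cyp2c55 lay above the highest of Cyp2c65, and the lowest of Cyp2c65 above the highest of Cyp4f14. Further down the order of means, the 6-library ranges of neighbours overlapped, with the exception of Cyp4f16 and Cyp4f13. Of 22 neighbouring pairs, 3 were separated. Genes farther apart in the order could still be separated: Cyp2d26, at 40.7 to 49.9 FPKM, lay wholly below Cyp4f14 (51.6 to 77.3) and wholly above Cyp4f40 (23.9 to 36.1).

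From Cyp3a13 down to 10 FPKM followed Cyp2d26 (43.6 ± 3.37 FPKM), Cyp2d34 (35.0 ± 10.4), Cyp4f40 (30.5 ± 4.31), Cyp2j6 (22.4 ± 2.82), Cyp4b1 (19.1 ± 10.7), Cyp2s1 (18.9 ± 1.96), Cyp2c68 (14.9 ± 3.03) and Cyp4f16 (14.8 ± 0.813). Cyp2s1 is an epithelial P450 found mostly outside the liver, and Cyp4b1 is known for activating the lung toxin 4-ipomeanol. The 11 members between 1 and 10 FPKM were Cyp4f13, Cyp2d10, Cyp2c66, Cyp2w1, Cyp2d13, Cyp2d9, Cyp2d12, Cyp2d22, Cyp4v3, Cyp2f2 and Cyp2c69. Just inside the threshold, Cyp2f2 averaged 1.73 FPKM (0.691 to 2.42 by library) and Cyp2c69 1.37 FPKM (0.683 to 1.77). Just outside it lay Cyp4f15 at 0.744 FPKM (0.270 to 1.69), Cyp4f17 at 0.732 FPKM (0.510 to 1.12) and Cyp2j9 at 0.507 FPKM (0.285 to 0.694).

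**Figure D1:**
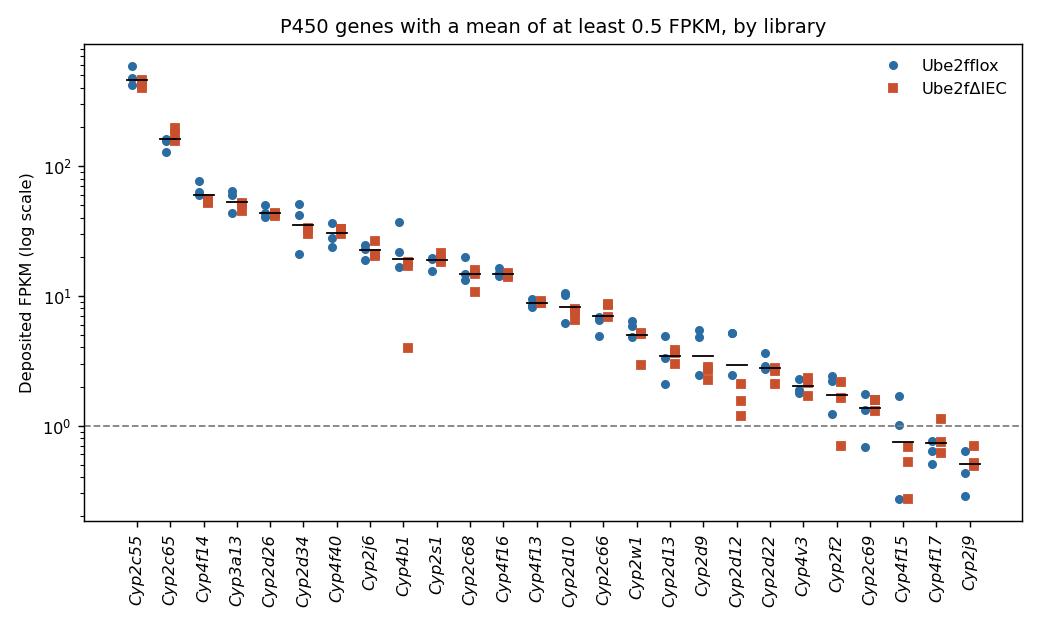
Deposited FPKM on a log axis for the 26 P450 genes with a mean of at least 0.5 FPKM, with Ube2fflox libraries as circles, Ube2fΔIEC libraries as squares and the mean of all 6 as a bar. The dashed line marks 1 FPKM. Cyp2c55 and Cyp2c65 stand clear of all others, and Cyp4b1 in 1 Ube2fΔIEC library lies at 3.95 FPKM against 16.6 to 37.0 in the other 5.

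Members above and below 1 FPKM lay side by side in the same gene clusters. On chromosome 19 (positions of GENCODE M21, GRCm38), Cyp2c55 (ENSMUSG00000025002, 39007019 to 39042693), Cyp2c65 (ENSMUSG00000067231, 39061015 to 39093944) and Cyp2c66 (ENSMUSG00000067229, 39113898 to 39187072) follow each other on the plus strand. Their mean levels in that order were 462, 162 and 7.05 FPKM. Farther on, on the minus strand, Cyp2c68 (14.9 FPKM) sits between Cyp2c67 (0.103) and Cyp2c40 (0.299), followed by Cyp2c69 (1.37) and Cyp2c70 (0.00828). On chromosome 15, Cyp2d26 at 43.6 FPKM neighbours Cyp2d40, which had 4 counts in all libraries together. On chromosome 17, Cyp4f16 (14.8 FPKM) and Cyp4f40 (30.5 FPKM) flank Cyp4f37 at 0.0348 FPKM.

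**Figure D2:**
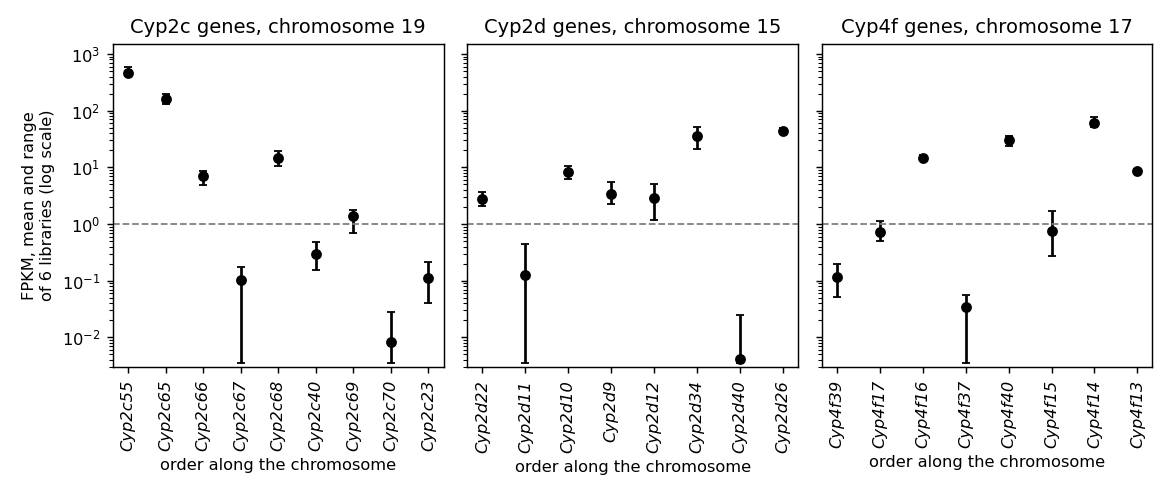
Mean FPKM (points) and range over the 6 libraries (lines, both genotypes pooled) on a log axis, with genes in their order along chromosomes 19, 15 and 17 and not to genomic scale. Lines that reach the lower edge include a library listed at 0, the dashed line marks 1 FPKM, and Cyp2d13, whose ID is not in GENCODE M21, is not drawn. Members near 0 stand next to expressed ones, as Cyp2d40 (0.00417 FPKM) does next to Cyp2d26 (43.6 FPKM).

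Promoter sequences are shown for the leading pair, for Cyp2c66 as the near copy of Cyp2c65, and for Cyp4f14 and Cyp2w1, which among the members with no overlap between genotypes and a promoter entry had the largest log2 fold changes in size. Each is the 250 bases before the annotated start, read 5′ to 3′ on the gene's strand, from RefSeq on GRCm38.p6. The windows are chr19:39006769-39007018, chr19:39060756-39061005 and chr19:39113648-39113897 on the plus strand, chr17:32917357-32917606 on the minus strand and chr5:139352366-139352615 on the plus strand. Capitals mark matches on either strand to 5 motifs: the TATA box (TATAAA), an HNF4 element (CAAAGTCCA), a GATA element (AGATAA), a CDX2 element (TTTATNG) and the core of the AHR element (GCGTG). No 2 matches overlap in these windows.
Cyp2c55: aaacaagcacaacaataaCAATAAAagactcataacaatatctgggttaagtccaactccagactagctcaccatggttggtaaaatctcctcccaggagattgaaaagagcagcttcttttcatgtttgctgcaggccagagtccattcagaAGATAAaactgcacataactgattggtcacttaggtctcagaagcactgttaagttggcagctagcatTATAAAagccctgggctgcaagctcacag
Cyp2c65: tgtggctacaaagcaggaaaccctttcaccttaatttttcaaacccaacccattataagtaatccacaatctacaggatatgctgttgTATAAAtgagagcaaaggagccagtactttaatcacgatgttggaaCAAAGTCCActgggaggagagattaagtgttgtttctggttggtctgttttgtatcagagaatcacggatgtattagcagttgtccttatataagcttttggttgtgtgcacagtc
Cyp2c66: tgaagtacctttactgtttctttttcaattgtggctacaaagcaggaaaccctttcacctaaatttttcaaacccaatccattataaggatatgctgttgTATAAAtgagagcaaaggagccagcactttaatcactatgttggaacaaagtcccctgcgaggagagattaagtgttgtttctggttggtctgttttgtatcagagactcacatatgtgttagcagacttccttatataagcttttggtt
Cyp4f14: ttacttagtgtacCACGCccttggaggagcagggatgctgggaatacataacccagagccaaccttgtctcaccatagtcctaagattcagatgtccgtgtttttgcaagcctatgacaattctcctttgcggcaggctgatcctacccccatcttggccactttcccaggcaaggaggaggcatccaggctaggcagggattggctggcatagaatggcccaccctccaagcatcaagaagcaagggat
Cyp2w1: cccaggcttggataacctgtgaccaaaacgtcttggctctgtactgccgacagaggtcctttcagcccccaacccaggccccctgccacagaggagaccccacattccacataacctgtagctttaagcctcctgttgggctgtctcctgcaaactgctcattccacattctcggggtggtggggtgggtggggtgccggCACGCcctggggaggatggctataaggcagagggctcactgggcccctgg

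Cyp2c55 holds TATAAA at 29 to 24 bases before the start, a GATA match and a CDX2 match. Cyp2c65 and Cyp2c66 are 94.1% identical over 221 aligned bases. Each holds the exact letters TATAAA far from its start, at 162 to 157 and 150 to 145 bases before it. Other spellings, such as the tatataag that both hold nearer to the start, were not searched. The HNF4 match of Cyp2c65 is broken in Cyp2c66 by the substitution A9C, counted from 1 at the first base of the motif, Cyp2c65 first. Of the 23 expressed members, 19 had a promoter entry. TATAAA occurred in 6 of these and in 12.98% of the same windows of 27018 genes. CAAAGTCCA occurred in 3 (Cyp2c65, Cyp2c68 and Cyp2c69) and in 0.38% of all. These 3 are related genes of the same cluster and so are not independent, and members under 1 FPKM were not looked at separately. AGATAA and TTTATNG each occurred in 2, Cyp2c55 and Cyp4f40, against 10.23% and 10.19%, and GCGTG in 5 against 28.28%. These are matches of letters and not shown binding sites.

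Some of these genes are near copies, and how reads with several matches were counted is not stated in the labels or headers. Of the 100-base stretches of the longest annotated transcript, Cyp2c69 shares 36.3%, Cyp2c68 19.8%, Cyp2d10 14.8%, Cyp2d9 9.9%, Cyp4f16 9.8%, Cyp2c66 8.6% and Cyp2c65 7.8% with another gene. The values of Cyp2c68 and Cyp2c69, whose leading partner is Cyp2c40, and of Cyp2d9 and Cyp2d10 are therefore less certain. The same holds for low neighbours in the clusters: Cyp2c40 shares 44.1%, Cyp2c67 23.7% and Cyp4f37 8.1%, whereas Cyp2d40 and Cyp2c70 share 0%. Cyp2c55, Cyp4f14, Cyp3a13, Cyp2d34, Cyp4f40, Cyp2j6, Cyp2s1, Cyp2w1 and Cyp4f13 share 0%, and Cyp2d12 shares 1.2%.

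The comparison of Ube2fΔIEC with Ube2fflox asks how P450 expression of the unchallenged colon epithelium differs with the deletion of Ube2f. For this test, counts were scaled with TMM factors to CPM, the count as a share of the scaled library, and log2 fold changes are Ube2fΔIEC over Ube2fflox. Of the 51 members 36 passed the filter on low counts and were tested, all 23 expressed ones among them. By the edgeR quasi-likelihood test, 0 members passed the 0.05 threshold after Benjamini-Hochberg adjustment over all 17900 genes tested, of which 8 (0.0447%) did, 0.0223% higher and 0.0223% lower. At an unadjusted p under 0.05 there were 9 members, all lower, against 1464 genes (8.18%, of which 4.15% higher and 4.03% lower), and DESeq2 called 2 members, Cyp4f14 and Cyp2d12, beside 234 of 18517 genes (1.26%).

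Most expressed members were lower in Ube2fΔIEC: with TMM scaling 20 of 23 log2 fold changes were negative (median -0.35, all genes tested -0.00018), and with library totals alone 14 were (median -0.19, all genes 0.15). Relative to the median of all genes, 20 lay below it under either scaling, a count that by construction hardly depends on the scaling. Without Ube2fΔIEC replicate 1, 19 of 23 were negative. The 2 genotypes did not overlap in 8 of the 23, all lower in Ube2fΔIEC. Over all 17900 genes tested, the ranges of 14.2% did not overlap, 6.9% lower and 7.26% higher, and over the 11411 tested genes with a mean of at least 1 FPKM the share was 15.7%. In these bulk samples, fewer cells of a type and less RNA per cell cannot be told apart.

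The 8 members were Cyp2c55, Cyp4f14, Cyp2d26, Cyp4f16, Cyp4f13, Cyp2w1, Cyp2d12 and Cyp2d22. They included neither Cyp2c65 nor Cyp3a13, the second and the fourth in level. Leaving out a library of the same values cannot make separated groups overlap, so the 8 by construction stayed apart without Ube2fΔIEC replicate 1. Without that library Cyp2c68 (lower) and Cyp2c65 and Cyp2c66 (both higher) did not overlap either, where 23.2% of all genes tested did not. For most of the 8 the lack of overlap rests on scaling. With library totals, or with the deposited FPKM, only Cyp4f14 and Cyp2d12 of the 8 kept it, while 22.5% and 22.3% of all genes tested did not overlap.

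**Figure D3:**
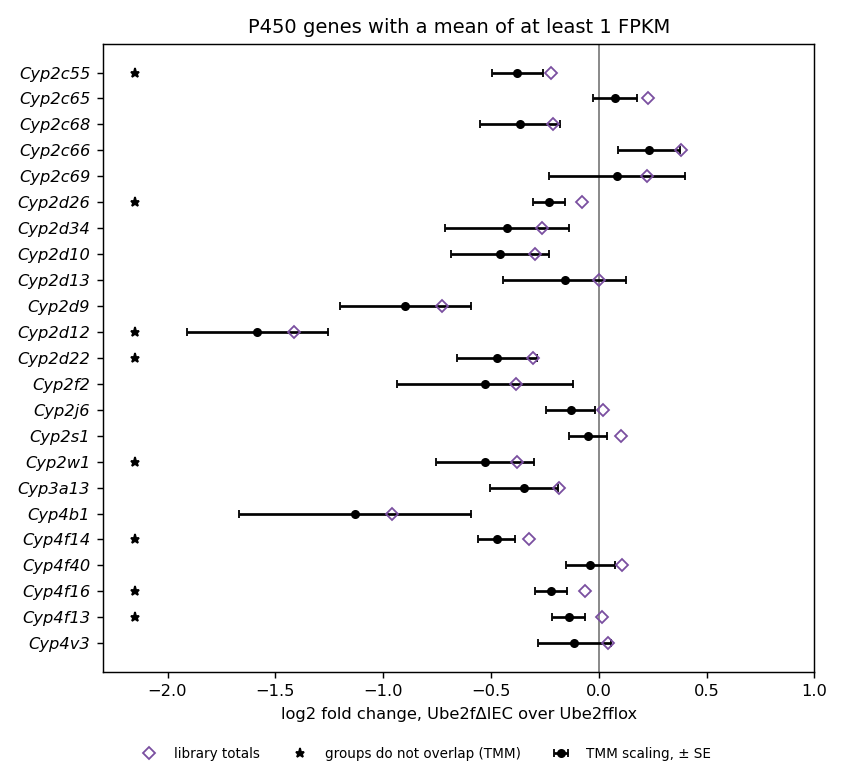
Log2 fold change, Ube2fΔIEC over Ube2fflox, of the 23 P450 genes with a mean of at least 1 FPKM, grouped by subfamily. Filled points with bars are the TMM-scaled edgeR estimates ± SE (n = 3 per genotype), open diamonds the same with library totals, and stars mark genes whose genotypes do not overlap with TMM scaling. With TMM 20 points lie left of 0, and the diamonds sit to their right by about the median shift of all genes.

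The 3 neighbouring Cyp2c genes on the plus strand did not pass the test. Cyp2c55 was at 1316, 967 and 1183 CPM in Ube2fflox replicates 1 to 3 and at 940, 878 and 850 CPM in Ube2fΔIEC. Each Ube2fΔIEC library lay below each Ube2fflox library, the closest pair by a narrow margin. The log2 fold change was -0.38 (SE 0.12; adjusted p = 0.470 by edgeR quasi-likelihood), and with library totals the genotypes overlapped. Cyp2c65 was at 345, 348 and 309 CPM in Ube2fflox and at 308, 390 and 359 CPM in Ube2fΔIEC, with overlap (0.08, SE 0.10, or 0.16 without Ube2fΔIEC replicate 1). Cyp2c66 was at 14.1, 15.4 and 12.0 CPM against 13.9, 17.4 and 17.4 CPM, also overlapping (0.23, SE 0.14).

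Ratios between 2 genes of 1 library do not depend on scaling. The 4 ratios described in this text were chosen after the values were seen. Cyp2c55 FPKM exceeded Cyp2c65 FPKM by a factor of 3.68, 2.68 and 3.70 in Ube2fflox and of 2.95, 2.18 and 2.29 in Ube2fΔIEC, which overlap. The ratio of Cyp2c65 to Cyp2c66 was 24.7, 22.8 and 26.1 in Ube2fflox and 22.4, 22.6 and 20.8 in Ube2fΔIEC, with no overlap but a gap smaller than the spread within either genotype. Exact permutation of 3 against 3 libraries allows no p under 0.1 for any ratio. Cyp2c68 (-0.37, SE 0.18) and Cyp2c69 (0.09, SE 0.32) did not pass either.

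Of the remaining expressed members of family 2 outside Cyp2c and Cyp2d, Cyp2w1 did not overlap between genotypes and Cyp2j6, Cyp2s1 and Cyp2f2 did. Cyp2j6, of an arachidonate-metabolising subfamily, was at 98.1, 95.7 and 85.4 CPM in Ube2fflox and at 74.9, 99.2 and 80.9 CPM in Ube2fΔIEC (log2 fold change -0.13, SE 0.11, or -0.05 without Ube2fΔIEC replicate 1). Cyp2s1 was at 108, 110 and 95.9 CPM against 97.6, 110 and 94.8 CPM (-0.05, SE 0.09), so both genes overlapped, and both log2 fold changes turned positive with library totals (0.02 and 0.10). Cyp2w1, which in humans is known from fetal gut and colon tumours, was at 10.9, 10.2 and 9.04 CPM in Ube2fflox and at 4.59, 8.15 and 8.15 CPM in Ube2fΔIEC. All Ube2fΔIEC values were lower, and Ube2fΔIEC replicate 1 was the lowest. The log2 fold change was -0.53 (SE 0.23; adjusted p = 0.604 by edgeR quasi-likelihood) and -0.30 without that library. Cyp2f2, which activates naphthalene in the mouse airway, overlapped widely, at 5.00, 5.66 and 3.08 CPM against 4.58, 1.46 and 3.52 CPM (-0.53, SE 0.41). Its log2 fold change was -0.88 without Ube2fΔIEC replicate 1 and -0.18 without Ube2fΔIEC replicate 2.

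Of the family 4 fatty acid hydroxylases, Cyp4f14 showed the clearest separation. It was at 208, 176 and 179 CPM in Ube2fflox and at 133, 140 and 132 CPM in Ube2fΔIEC. The highest Ube2fΔIEC library was well below the lowest Ube2fflox library. The log2 fold change of -0.47 (SE 0.08) had the smallest edgeR adjusted p of the expressed members, 0.172 (quasi-likelihood, Benjamini-Hochberg), and DESeq2 gave an adjusted p of 0.000911. It ran from -0.52 to -0.40 when single libraries were left out and was -0.32 with library totals.

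The Cyp4f neighbours of Cyp4f14 differed less. Cyp4f16 was at 50.8, 57.8 and 54.1 CPM against 47.2, 46.4 and 45.9 CPM (log2 fold change -0.22, SE 0.07, or -0.07 with library totals). Cyp4f13 was at 42.3, 48.4 and 45.3 CPM against 41.8, 40.5 and 41.2 CPM (-0.14, SE 0.08, or 0.02 with library totals). In both, Ube2fΔIEC lay below Ube2fflox by small steps and within a tight spread. Cyp4f40 was at 99.99, 80.1 and 73.9 CPM against 83.8, 84.8 and 78.4 CPM and overlapped (-0.04, SE 0.11). The ratio of Cyp4f14 to Cyp4f40 FPKM was 2.14, 2.26 and 2.49 in Ube2fflox and 1.63, 1.70 and 1.74 in Ube2fΔIEC, with no overlap. Cyp4v3, the mouse counterpart of the human CYP4V2 enzyme of ocular fatty acid metabolism, was at 8.02, 10.1 and 8.53 CPM against 6.67, 9.28 and 8.63 CPM (-0.11, SE 0.17), and its log2 fold change turned to 0.0138 without Ube2fΔIEC replicate 1.

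Cyp4b1 spread widely between libraries. It was at 41.7, 57.1 and 104 CPM in Ube2fflox and at 9.24, 39.8 and 43.3 CPM in Ube2fΔIEC. The lowest value belonged to Ube2fΔIEC replicate 1, the library without Y-linked counts, and the highest to Ube2fflox replicate 3, and the genotypes overlapped. The log2 fold change was -1.13 (SE 0.54; edgeR quasi-likelihood adjusted p = 0.638). It was -0.70 without Ube2fΔIEC replicate 1 and -0.68 without Ube2fflox replicate 3. The part of the sex difference of that library in this value was not tested.

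In most Cyp2d genes, Ube2fflox replicate 1 lay with the Ube2fΔIEC libraries or nearest to them. The subfamily's best known member, Cyp2d9, is the male-specific testosterone 16α-hydroxylase of mouse liver. Cyp2d12 was at 10.7, 23.2 and 24.9 CPM in Ube2fflox and at 8.43, 6.26 and 4.94 CPM in Ube2fΔIEC. All Ube2fΔIEC libraries were lower, with Ube2fflox replicate 1 nearest to them. Its log2 fold change of -1.58 (SE 0.33) was the largest in size of the expressed members, with an adjusted p of 0.243 by edgeR quasi-likelihood and 4.1e-06 by DESeq2. Without Ube2fΔIEC replicate 1 the log2 fold change of Cyp2d12 was -1.81. Cyp2d9 was at 7.26, 14.8 and 18.2 CPM against 6.19, 7.45 and 7.96 CPM, and overlapped through Ube2fflox replicate 1 (-0.90, SE 0.30; adjusted p = 0.492 by edgeR quasi-likelihood).

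The same arrangement held in Cyp2d34, at 65.3, 164 and 144 CPM in Ube2fflox and 85.4, 94.1 and 98.5 CPM in Ube2fΔIEC (log2 fold change -0.43, SE 0.29), where Ube2fflox replicate 1 was the lowest library of all. Cyp2d10 was at 11.3, 20.1 and 20.9 CPM against 11.2, 12.9 and 13.8 CPM (-0.46, SE 0.23). Cyp2d13 was at 7.56, 18.4 and 13.5 CPM against 10.1, 12.8 and 12.4 CPM (-0.16, SE 0.29). In all 3, Ube2fflox replicates 2 and 3 lay above every Ube2fΔIEC library and Ube2fflox replicate 1 did not. Without Ube2fflox replicate 1, edgeR called Cyp2d12, Cyp2d34 and Cyp2d9 lower (quasi-likelihood, Benjamini-Hochberg adjusted p = 0.0264, 0.0306 and 0.0395). That fit called 90 of 18678 genes, against 8 of 17900 with all libraries. In these 3 genes Ube2fflox replicate 1 was the lowest Ube2fflox library, so leaving it out widens the difference by construction. Leaving out any other single library called 0 members. Without Ube2fflox replicate 2 the log2 fold change of Cyp2d34 was -0.18 and that of Cyp2d13 turned to 0.16.

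Cyp3a13, on chromosome 5, followed the same course. It was at 144, 218 and 219 CPM in Ube2fflox and at 138, 160 and 159 CPM in Ube2fΔIEC (log2 fold change -0.35, SE 0.16; edgeR quasi-likelihood adjusted p = 0.629). Across the 6 libraries, log2 CPM of Cyp3a13 and Cyp2d10 correlated with Pearson r = 0.993 and of Cyp3a13 and Cyp2d9 with r = 0.978, the first and the third of 253 pairs of expressed members. These points share libraries and scaling factors and describe 6 samples only. Cyp2d26 did not share the pattern. It was at 99.5, 89.4 and 90.8 CPM in Ube2fflox, with replicate 1 the highest, and at 75.7, 79.5 and 83.2 CPM in Ube2fΔIEC (-0.23, SE 0.07, or -0.08 with library totals). Cyp2d22, often taken as the mouse counterpart of human CYP2D6, was at 11.9, 13.1 and 17.7 CPM against 8.50, 10.6 and 11.6 CPM (-0.47, SE 0.19), with a narrow gap between the genotypes. Its log2 fold change was -0.35 without Ube2fΔIEC replicate 1. The ratio of Cyp2d26 to Cyp2d12 FPKM was 20.2, 8.35 and 7.92 in Ube2fflox and 19.6, 27.7 and 36.7 in Ube2fΔIEC, which overlap.

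**Figure D4:**
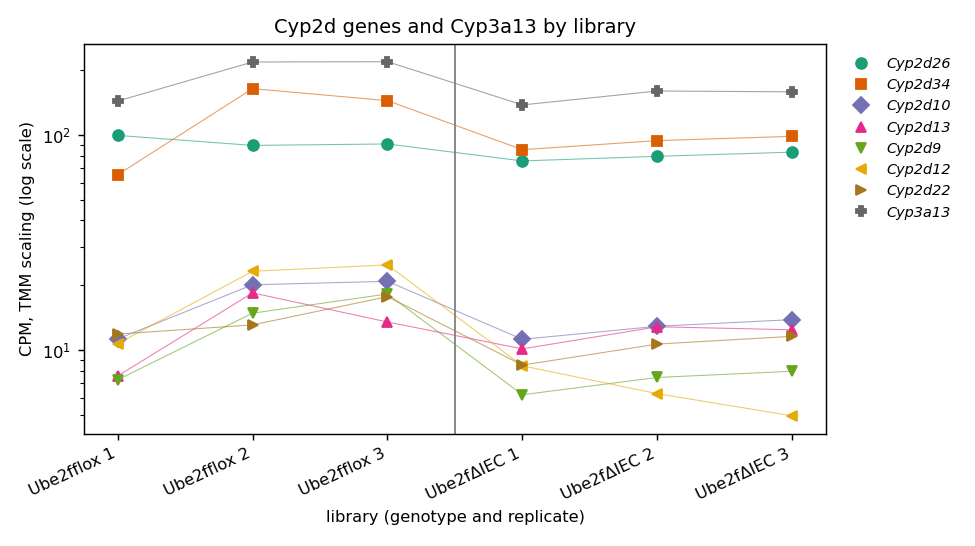
CPM with TMM scaling, on a log axis, of the 7 expressed Cyp2d genes and Cyp3a13 in each library, with Ube2fflox left and Ube2fΔIEC right of the vertical line. Thin lines only join the points of 1 gene. In Cyp2d34, Cyp2d10, Cyp2d13, Cyp2d9, Cyp2d12 and Cyp3a13, Ube2fflox replicates 2 and 3 are above Ube2fflox replicate 1, whereas Cyp2d26 is highest in Ube2fflox replicate 1.

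Classical readouts of AHR, CAR and PPARα among the members were close to absent. Cyp2c55 and Cyp3a13, of subfamilies placed above under CAR and PXR, were among the leading members. Cyp1a1, the textbook AHR target, had 8 counts, all in Ube2fΔIEC replicate 2. Cyp2b10, the CAR target, had 31 counts in all and at most 0.300 CPM in any library, and Cyp4a10, the PPARα target, had 10 counts, all in 1 library. A floor of 3 counts lay between 0.0387 and 0.0536 CPM in these libraries and covers counting error only. The vitamin D 25-hydroxylase Cyp2r1 averaged 0.365 FPKM and overlapped between genotypes (log2 fold change 0.02, SE 0.46).

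Of the 13 tested members under 1 FPKM, 2 did not overlap, a share near the 14.2% of all genes tested. Cyp2c67, at 0.103 FPKM, was higher in Ube2fΔIEC (0.319, 0.274 and 0.226 CPM against 0.209, 0 and 0.159) and shares 23.7% of its 100-base stretches with another gene. Cyp4x1, named here after its values were seen, was lower (0.0671, 0 and 0.150 CPM against 0.196, 0.351 and 1.39). Neither passed (edgeR quasi-likelihood adjusted p = 0.814 and 0.544). No member had 0 counts in all libraries, but neither did any other row, so P450 genes without reads would not be among the 51. Of the members, 17 had a mean under 0.1 FPKM, and 11 had at most 20 counts over the 6 libraries together. The 15 untested members take no part in the comparison.

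The genes that supply P450 enzymes with electrons and haem were expressed throughout. Of the 13 in the list, 0 passed in either direction, and with TMM scaling 3 did not overlap, all lower in Ube2fΔIEC, where 6.9% of all genes were lower without overlap. With library totals these 3 overlapped, and the median log2 fold change moved from -0.08 to 0.08. Alas1, the rate-limiting enzyme of haem synthesis, was at 256, 210 and 192 CPM in Ube2fflox and 143, 176 and 179 CPM in Ube2fΔIEC (-0.40, SE 0.13). Cyb5a, cytochrome b5, which donates electrons to some P450 enzymes, was lower by a smaller step (-0.29, SE 0.12), as was Urod of haem synthesis (-0.20, SE 0.09). The 3 of highest level, Cyb5b, Pgrmc1 and Por, had log2 fold changes of 0.08, -0.10 and -0.15 (SE 0.17, 0.08 and 0.11) and overlapped, and those of Pgrmc1 and Por were positive with library totals.

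The AHR and PXR genes exceeded 1 FPKM, and the CAR gene did not. Of 9 tested genes of the AHR list 0 passed and 0 lacked overlap with TMM scaling (median log2 fold change -0.03). Library totals gave a median of 0.13 and 1 gene higher without overlap, where 22.5% of all genes tested did not overlap. Ugt1a6a (-0.06) and Nqo1 (0.39), the first and the second in level, overlapped, and Ahr averaged 3.43 FPKM while its repressor Ahrr was at 0.0486 FPKM. In the PXR and CAR list 0 of 13 passed, and the median was -0.07, or 0.09 with library totals. With TMM scaling 2 did not overlap, both lower, where 6.9% of all genes tested were lower without overlap. These 2 were the carboxylesterase Ces2a (-0.79, SE 0.21) and the nuclear receptor partner Rxra (-0.24, SE 0.08), and both overlapped with library totals. The PXR gene Nr1i2 averaged 28.6 FPKM (-0.02, SE 0.10), the CAR gene Nr1i3 0.613 FPKM, and the leading genes Hnf4a, Abcb1a and Gstm1 had log2 fold changes of -0.07, -0.06 and 0.19. With library totals those of Nr1i2, Hnf4a and Abcb1a were positive.

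In the PPAR list 0 of 12 tested genes passed, with a median log2 fold change of 0.04, or 0.19 with library totals. Without overlap 1 was higher and 1 lower with TMM scaling, against 7.26% and 6.9% of all genes tested. Under library totals 3 were higher and 0 lower, where 22.5% of all genes tested did not overlap. Ehhadh, of peroxisomal fatty acid oxidation, was higher in every Ube2fΔIEC library (0.37, SE 0.08), and Plin2, a lipid droplet protein, lower in every one with TMM scaling (-0.13, SE 0.07) but at 0.02 and overlapping with library totals. Cpt1a, of mitochondrial fatty acid import, overlapped with TMM scaling (0.04, SE 0.08) but was higher without overlap with library totals (0.19). The PPARα gene Ppara averaged 4.78 FPKM (-0.27, SE 0.14).

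Of 14 tested enzymes that act on arachidonic acid and its products, 0 passed, and 10 log2 fold changes were negative (median -0.43), or 8 with library totals (median -0.27). Without overlap 5 were lower and 2 higher with TMM scaling, against 6.9% and 7.26% of all genes tested. With library totals 5 were lower and 3 higher, where 22.5% of all genes tested did not overlap. Both higher ones with TMM scaling, Alox15 and Ptges, and the lower Hpgds, Alox5 and Ptgs1 averaged only 0.13 to 0.59 FPKM. Hpgd, which inactivates prostaglandins, was at 131, 154 and 140 CPM in Ube2fflox and at 106, 109 and 103 CPM in Ube2fΔIEC, with no overlap (-0.42, SE 0.08; edgeR quasi-likelihood adjusted p = 0.187). Ephx2, the soluble epoxide hydrolase, which hydrolyses P450-made epoxides, was likewise lower in every Ube2fΔIEC library (-0.44, SE 0.13), and Lta4h, of leukotriene B4 synthesis, overlapped (-0.03, SE 0.10). Of the P450 genes of other families, 7 were tested and 0 passed (median 0.09), and Cyp51, of sterol synthesis, was higher in every Ube2fΔIEC library (0.42, SE 0.10), while Cyp39a1 (0.09) and Cyp27a1 (-0.95, SE 0.33) overlapped.

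Markers of the cell types in the preparation differed beside these values. Of 15 absorptive colonocyte genes 11 were lower in Ube2fΔIEC with TMM scaling (median log2 fold change -0.14) and 7 with library totals (median 0.0040), with summed levels of 7528 to 10961 FPKM in Ube2fflox and 7879 to 10495 in Ube2fΔIEC. Of 10 goblet cell genes 7 were higher and 1 lower with no overlap (median 0.37), against 7.26% and 6.9% of all genes tested. Library totals gave 7 higher and 0 lower, where 22.5% of all genes tested did not overlap. The goblet sum was 1575 to 2132 FPKM in Ube2fflox and 3269 to 3565 in Ube2fΔIEC. All 10 enteroendocrine genes were lower (median -0.79, 58.7 to 116 against 46.4 to 64.4 FPKM), as were all 9 tested tuft cell genes (median -0.51, 4.58 to 6.53 against 3.90 to 4.17 FPKM). The tuft list shares Ptgs1 and Alox5 with the list of arachidonate enzymes. The 10 stem and proliferating crypt genes had a median of 0.30 (73.0 to 105 against 114 to 126 FPKM) but did not move together. With TMM scaling 6 were positive and 4 negative, and without overlap 4 were higher and 2 lower. Negative were Lgr5 and Smoc2 (both -0.58, the 2 without overlap), Ascl2 (-0.16) and Axin2 (-0.10). Mki67, Top2a, Pcna, Mcm5, Mcm6 and Rrm2 were positive, at 0.24 to 0.79. Library totals turned Ascl2 and Axin2 slightly positive. None of these genes passed the test over all genes, and their part in the P450 values was not tested.

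Markers of immune, stromal and other cells were also measured. All 10 T and innate lymphoid genes were lower in Ube2fΔIEC (median -0.57, 10.6 to 29.2 against 13.8 to 17.7 FPKM), and the myeloid list had a median of -0.41 (21.2 to 24.4 against 24.0 to 25.8 FPKM). The medians of the B and plasma cell, fibroblast, smooth muscle and endothelial lists were -0.08, 0.16, 0.77 and -0.10. With library totals they were 0.09, 0.34, 0.92 and 0.06. The B and plasma cell list summed to 62.4 to 65.6 FPKM in Ube2fflox and 71.0 to 76.3 in Ube2fΔIEC, and the fibroblast, smooth muscle and endothelial lists to at most 0.81, 1.82 and 1.77 FPKM. Of hepatocyte genes, of which 5 of 9 were in the table, Alb averaged 0.119 FPKM and Apoh 0.117 FPKM, while Ttr averaged 9.21 FPKM and was lower in every Ube2fΔIEC library with TMM scaling (-1.05, SE 0.29), but overlapped with library totals. The summed hepatocyte list, mostly Ttr, was 7.87 to 17.3 FPKM in Ube2fflox and 6.06 to 8.44 in Ube2fΔIEC (median -0.61). Small intestine enterocyte genes summed to 326 to 348 FPKM in Ube2fflox and 277 to 430 in Ube2fΔIEC (median 0.06), and the distal colon genes to 37.4 to 39.9 and 38.0 to 55.2 FPKM (median 0.07). Again 0 genes of these lists passed, and their part was not tested.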

How the data were processed

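Polyadenylated RNA of 6 libraries was analysed, 1 per mouse, 3 per genotype. The deposited table gives raw counts, and FPKM values that the authors scaled by gene length and library size, per the file headers. The submitters' processing notes name cutadapt 1.9, HISAT2 2.2.1, StringTie 2.1.6, DESeq2, edgeR and mm10. How counts were made from alignments, and whether libraries keep strand, is not stated there. The positions in the table match GENCODE M21 for 0 of 50 member IDs found there (517 of all 26774 shared IDs, 1.93%), so positions printed are those of GENCODE M21 (GRCm38) by gene ID. No other sample columns were present (0).

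Genes were kept by filterByExpr (17900 of 28500), given TMM factors and compared by the quasi-likelihood test of edgeR 4.0.16 (R 4.3.3, limma 3.58.1), 2-sided, genotype only, Benjamini-Hochberg over all genes, threshold 0.05. The SE is the log2 fold change over the square root of F. DESeq2 1.42.0, limma-voom, other scalings, FPKM on a log2 scale (pseudocounts 0.1 and 1), a replicate block and leave-outs were alternatives, and the tests were checked on simulated data. The labels number the mice, and libraries of 1 genotype differed by more than counting noise, with 25.3 to 177 for chi-square over its degrees of freedom. Without molecular identifiers, reads may be copies of 1 molecule.

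The members and lists were chosen with earlier results of these data known. Members with a mean of at least 1 FPKM are named, and lower ones at 0.5 FPKM or more, or at 0.1 FPKM or more without overlap between the genotypes. Further low members were named after their values were seen. In each pathway list the called genes and the 3 of highest FPKM are named, except some that are not reported here, and other genes of the lists were chosen after their values were seen. The rule for sequences named proteins. With no protein table used here, promoters were printed by the same rule, plus Cyp2c66, added after its value was seen. Cyp2d12, Cyp2d13, Cyp2d22 and Cyp2d34 had no promoter entry.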

Additional observations from a re-analysis of the deposited data

How the results depend on the processing

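Of the 322 repeated log2 fold changes of the 23 expressed members (14 alternatives each), 294 kept their direction and side of the threshold, 5 newly passed and 23 changed sign, none of them past the threshold. With library totals the changed values were 0.109 (Cyp4f40), 0.0215 (Cyp2j6), 0.102 (Cyp2s1), 0.0166 (Cyp4f13), 0.0020 (Cyp2d13) and 0.0406 (Cyp4v3). On FPKM with a pseudocount of 0.1 they were 0.133, 0.0248, 0.111, 0.0249, 0.0831 and 0.0395 in the same order, and with a pseudocount of 1 they were 0.129, 0.0239, 0.106, 0.0225, 0.0531 and 0.0287. Library totals moved the median of all genes to 0.15, which by construction moves all members alike. When single libraries were left out, the value ran from -0.0022 to 0.16 for Cyp2c65, from -0.13 to 0.0929 for Cyp4f40, from -0.44 to 0.16 for Cyp2d13, from -0.21 to 0.0138 for Cyp4v3 and from -0.18 to 0.36 for Cyp2c69. No member was called higher under any alternative. The count called lower was 0 in the edgeR test and 2 with DESeq2, and 0 to 3 with single libraries left out, 3 being without Ube2fflox replicate 1; the cause was not tested. The count of tested members without overlap was 10 (1 higher, 9 lower), 4 with library totals (1 higher, 3 lower), 5 on deposited FPKM (2 higher, 3 lower) and 11 to 17 with single libraries left out, where fewer samples by construction overlap less (17 of 36 without Ube2fflox replicate 1, against 36.6% of all genes). The count of expressed members stayed within 1.5 times 23 under the alternatives tried. Same-numbered libraries of the genotypes share only a number (correlations of their deviations 0.08, -0.0082 and 0.08), and with the replicate block 0 members were called higher and 0 lower, as without it, beside 10 genes in all. The gene lists under library totals, an alternative chosen after seeing the data, are given beside some of the lists only. Counts or medians of other lists moved too. A floor of 3 counts lay between 0.0387 and 0.0536 CPM.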
